A study of Mus musculus with 12 samples.

Results

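The MYC/MAX/MXD transcription factor network was followed through its 8 member genes Myc, Mycn, Max, Mxd1, Mxd4, Mxi1, Mnt and Mlx, of 18193 genes named on the array. A probe set, the group of array probes that reads 1 transcript region, was taken when its only gene symbol was one of these 8, which gave 18 of the 45101 probe sets on the array. RNA came from CD8 T cells purified by an enrichment kit from spleens of male mice. All mice carried Cd4-Cre, a Cre recombinase under the Cd4 promoter that is active in T cells. Control littermates (WT) were Cd4-Cre/Scap+/+ and deficient mice (KO) were Cd4-Cre/Scapfl/fl, so the comparison concerns loss of Scap and not the presence of Cre. Quiescent cells (T0) were compared with cells activated for 6 h with antibody to CD3 bound to the plate and soluble antibody to CD28 (T6). This design gave 4 groups of 3 arrays, WT T0, WT T6, KO T0 and KO T6, labelled as biological replicates. The labels do not give the ages of the mice or say which arrays share a mouse.

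MYC is a basic helix-loop-helix leucine zipper protein that binds DNA as a heterodimer with MAX, most often at the E-box CACGTG, and raises transcription of genes for ribosome assembly, metabolism and cell cycle entry. The MXD proteins, MXI1 and MNT also pair with MAX, bind the same E-box and recruit the SIN3 corepressor with its histone deacetylases, so they oppose MYC at shared sites. MLX is a MAX-like partner that pairs with some MXD proteins, with MNT and with the glucose-responsive MONDO factors. In T cells, antigen receptor and CD28 signals switch MYC on early, and MYC is needed for the metabolic change that precedes division. SCAP escorts the SREBP factors, which drive sterol and fatty acid synthesis, to the site where they are activated.

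Promoter windows are shown for the members that hold the E-box their own proteins can bind. In the RefSeq promoter sequences of GRCm38.p6, 300 bases from 250 before to 50 after the annotated start, 7 of the 8 members had a window, and CACGTG occurred in 4 of those 7. The motif is its own reverse complement, so both strands were searched at once, and it occurred in 7.15% of all 32851 windows and in 8.09% of the 27025 genes with a window. The 4 windows are Max at chr12:76962199-76962498 on the minus strand, Mxd4 at chr5:34187661-34187960 on the minus strand, Mnt at chr11:74830674-74830973 on the plus strand and Mlx at chr11:101087040-101087339 on the plus strand. Each is printed 5′ to 3′ along the gene, with the E-box in capitals.
Max: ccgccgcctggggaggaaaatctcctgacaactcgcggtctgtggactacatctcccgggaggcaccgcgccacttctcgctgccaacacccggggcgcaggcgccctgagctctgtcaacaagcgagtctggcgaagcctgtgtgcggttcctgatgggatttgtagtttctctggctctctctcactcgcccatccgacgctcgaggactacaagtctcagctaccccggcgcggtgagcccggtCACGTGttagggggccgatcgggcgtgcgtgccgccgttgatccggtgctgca
Mxd4: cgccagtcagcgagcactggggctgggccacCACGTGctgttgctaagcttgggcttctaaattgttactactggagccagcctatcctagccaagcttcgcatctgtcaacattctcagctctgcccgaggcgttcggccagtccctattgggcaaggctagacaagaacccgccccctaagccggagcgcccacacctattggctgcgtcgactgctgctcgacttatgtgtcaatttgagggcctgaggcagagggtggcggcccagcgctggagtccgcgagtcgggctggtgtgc
Mnt: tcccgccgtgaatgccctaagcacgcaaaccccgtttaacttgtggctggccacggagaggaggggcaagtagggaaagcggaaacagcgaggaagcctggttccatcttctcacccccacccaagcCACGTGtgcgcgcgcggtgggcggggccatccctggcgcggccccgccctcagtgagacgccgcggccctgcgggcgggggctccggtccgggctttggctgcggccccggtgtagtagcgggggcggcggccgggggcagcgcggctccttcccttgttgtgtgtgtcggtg
Mlx: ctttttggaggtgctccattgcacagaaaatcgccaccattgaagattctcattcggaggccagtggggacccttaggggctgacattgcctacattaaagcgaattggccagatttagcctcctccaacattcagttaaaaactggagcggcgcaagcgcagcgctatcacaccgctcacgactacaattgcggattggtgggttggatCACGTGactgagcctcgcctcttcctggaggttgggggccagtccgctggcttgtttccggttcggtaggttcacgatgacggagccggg
The first base of the motif lay at position -3 in Max, -219 in Mxd4, -123 in Mnt and -40 in Mlx, counted from the annotated start. The windows of Mycn and Mxd1 and the 3 windows of Mxi1 did not hold these letters. A match is a description of the sequence and does not show binding in these cells.

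All 12 arrays had been scaled to the same trimmed mean signal of 500.003, with medians between 61.3 and 76.2. T cell markers were high in every group, for example Cd8b1, the CD8 beta chain, at group means between 13.33 and 14.39 on the log2 scale, while Cd4 did not pass the filter on low signals. Markers of other cells were also present. The mean log2 signal of 11 B cell markers ranged from 7.17 to 8.75 on the WT arrays and from 8.42 to 10.16 on the KO arrays. That of 11 myeloid markers ranged from 10.08 to 10.92 at T0 and from 7.05 to 8.38 at T6. That of 5 erythroid markers ranged from 8.40 to 9.21 in WT and from 9.18 to 12.75 in KO, and was highest on the replicate 2 arrays of both KO groups. Scap itself stood at signals of 2937, 2074 and 2380 in WT T0 and at 2459, 1805 and 1933 in KO T0. In WT T6 it stood at 3004, 2987 and 3079 and in KO T6 at 2193, 2117 and 2227, a log2 difference of -0.47 ± 0.14 (SE) at T6 with an adjusted p of 0.273. The files do not say whether these probes lie in the deleted part of Scap, so the signal does not check the deletion.

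On activation Myc rose in both genotypes and Mxd4, one of its antagonists, fell in both. The fall of Mlx passed the test in WT alone and the rise of Mxd1, another antagonist, in KO alone. Both genes moved the same way in the other genotype, and no difference between responses was called. Max, the shared partner, showed no change past the test. Of the 8 members, 3 passed an adjusted p of 0.05 in WT, 1 higher and 2 lower, against 25.1% of the 13156 tested genes (11.3% higher and 13.8% lower). In KO 3 passed, 2 higher and 1 lower, against 20.9% of tested genes (10.4% higher and 10.4% lower). Arrays of T6 and T0 did not overlap for 4 members in WT, against 42.8% of tested genes, and for 6 in KO, against 36.5%.

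**Figure D1:**
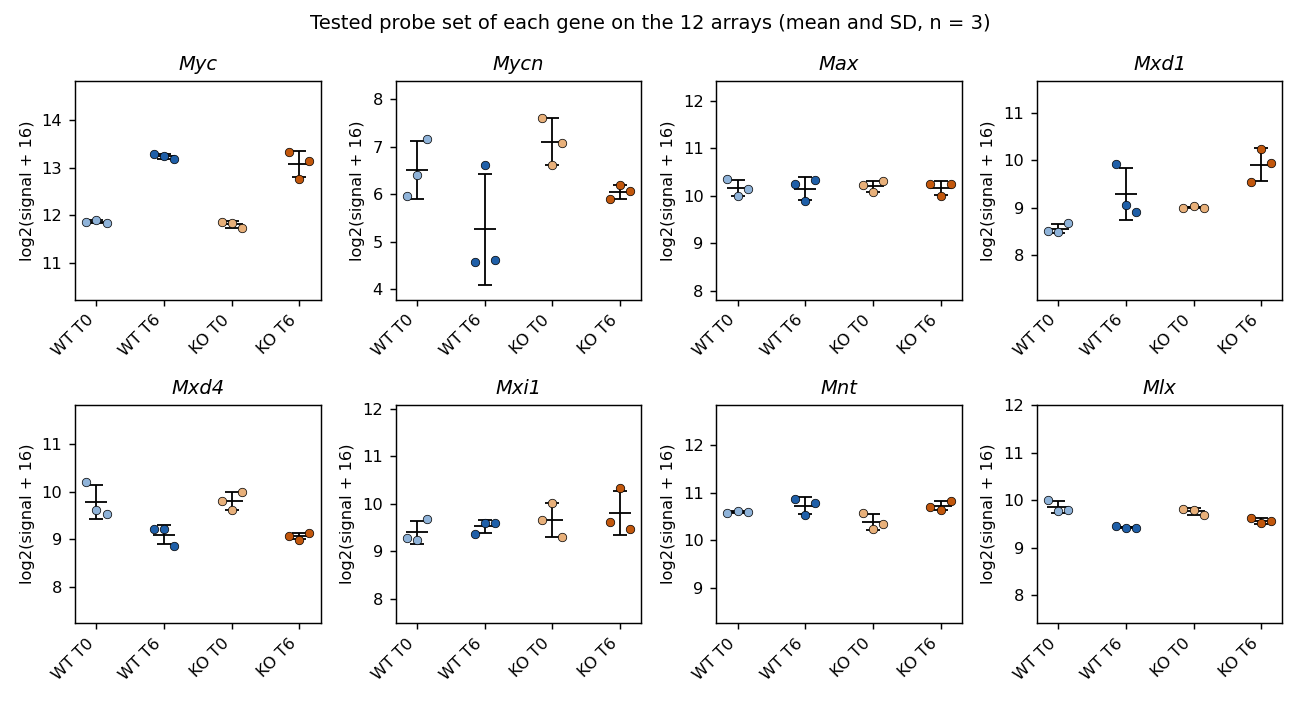
Signal of the tested probe set of each member on the 12 arrays, as log2(signal + 16), by group (WT T0, WT T6, KO T0, KO T6). Points are arrays, long bars the mean and short bars the SD (n = 3), and every panel spans the same number of log2 units. The T6 arrays lie above the T0 arrays for Myc in both genotypes, and the 4 groups overlap for Max.

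Myc, the member that drives growth and metabolism, was measured far above the array floor already in quiescent cells. Its signals were 3691, 3779 and 3612 in WT T0, and 9991, 9650 and 9315 in WT T6. In KO they were 3683, 3657 and 3377 at T0 and 10203, 6948 and 9037 at T6. Every T6 array lay above every T0 array, and KO T6 replicate 2 was the lowest of the activated arrays. On the log2 scale Myc rose by 1.38 ± 0.13 (SE) in WT, 2.61-fold (adjusted p = 5.52e-05), and by 1.27 ± 0.13 in KO, 2.41-fold (adjusted p = 0.000123). The fold changes are on the log2(signal + 16) scale, where 16 is added before taking the logarithm. In such bulk samples a change in RNA per cell and a change in the share of cells that hold it cannot be told apart. On KO T6 replicate 2 the 5 erythroid markers averaged 12.75 and the 9 T cell markers 12.28, the highest and the lowest of the 12 arrays. Without the replicate 2 arrays of KO T0 and KO T6 the rise of Myc in KO was 1.44 (adjusted p = 0.000159).

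Mycn, the family member best known from the developing nervous system, lay close to the array background. The percentile 40 of the arrays, used as the floor, lay between 34.0 and 42.7, and the tested Mycn probe set stood at 46.1, 68.4 and 128 in WT T0 and at 7.65, 81.5 and 8.36 in WT T6. In KO it stood at 179, 82.3 and 120 at T0 and at 43.6, 56.9 and 51.6 at T6. WT T6 replicate 2 lay about as high as the quiescent arrays and the other WT T6 arrays lay under the floor. The log2 difference on activation was -1.25 ± 0.52 in WT (adjusted p = 0.109) and -1.05 ± 0.52 in KO (adjusted p = 0.194). Without WT T6 replicate 2 it was -1.92 in WT with an adjusted p of 0.00557, and the difference in KO in the same fit had an adjusted p of 0.046. The other 2 Mycn probe sets lay at mean log2 signals of 5.95 and 5.19. One of them was above the floor on the 3 KO T0 arrays alone and, tested on its own, fell in KO by 1.33 (adjusted p = 0.0137). It passed the filter only through the group where it was high, which favours a fall. The other differed by 0.74 in WT and 1.09 in KO, in the opposite direction to the tested probe set. The 3 probe sets therefore give no single direction for Mycn.

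Max, the obligate partner of MYC and of its antagonists, was level across the groups. Its signals were 1287, 1006 and 1114 in WT T0 and 1195, 929 and 1275 in WT T6. In KO they were 1178, 1061 and 1252 at T0 and 1194, 1005 and 1203 at T6, so all 4 groups overlapped. The log2 difference on activation was -0.01 in WT, with a 95% interval from -0.33 to 0.31, and -0.04 in KO, with an interval from -0.36 to 0.28. These signs turn when arrays are centred on their median, and in WT also with quantile normalization. The log2 signal of Myc relative to Max on the same array was larger at T6 by 1.39 in WT and by 1.31 in KO, with no overlap between T6 and T0 arrays (exact permutation p = 0.1 in each, the smallest that 3 against 3 arrays allow).

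Among the antagonists, Mxd4, which pairs with MAX and represses through SIN3, fell on activation in both genotypes. Its signals were 1163, 768 and 724 in WT T0 and 575, 579 and 449 in WT T6. In KO they were 881, 770 and 1012 at T0 and 522, 493 and 546 at T6. All T6 arrays lay below all T0 arrays, and WT T0 replicate 1 was the highest array. On the log2 scale Mxd4 fell by 0.69 ± 0.18 in WT, to a level 1.61-fold lower (adjusted p = 0.0208), and by 0.75 ± 0.18 in KO, 1.68-fold lower (adjusted p = 0.0163). The 11 myeloid markers moved the same way, from means of 10.08 to 10.47 in WT T0 to 7.05 to 7.59 in WT T6 and from 10.57 to 10.92 in KO T0 to 7.89 to 8.38 in KO T6. The log2 ratio of the 3′ to the 5′ actin control probe sets, a sign of RNA quality, was 0.30 ± 0.08 (SD, n = 3) in WT T0, 0.50 ± 0.05 in WT T6, 0.36 ± 0.14 in KO T0 and 0.71 ± 0.09 in KO T6. The part of myeloid RNA or RNA quality in the Mxd4 and Mlx values was not tested. The WT call was lost without WT T0 replicate 1 (-0.48, adjusted p = 0.0514) and without WT T6 replicate 3 (-0.57, adjusted p = 0.0736). The KO call was lost without KO T0 replicate 3 (-0.65, adjusted p = 0.0623). When each probe set was tested on its own, a second Mxd4 probe set fell by 0.70 in KO (adjusted p = 0.00867) and differed by -0.38 in WT (adjusted p = 0.104). Another, weaker one differed by -0.86 in WT and -0.99 in KO, with adjusted p of 0.105 and 0.0719, and the weakest, above the floor on 7 arrays, by -0.15 and 0.04. The log2 signal of Myc relative to Mxd4 on the same array was larger at T6 by 2.07 in WT and by 2.01 in KO, with no overlap (exact permutation p = 0.1 in each, the smallest possible). This joins the rise of Myc and the fall of Mxd4 given above and is no separate result.

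Mxd1, the antagonist best known from cells that stop dividing and differentiate, went the other way from Mxd4. Its signals were 348, 345 and 393 in WT T0 and 948, 516 and 466 in WT T6. In KO they were 491, 506 and 496 at T0 and 727, 1194 and 968 at T6. In both genotypes every T6 array lay above every T0 array, and WT T6 replicate 1 was about as high as the KO T6 arrays. Mxd1 rose by 0.90 ± 0.25 in KO, 1.87-fold (adjusted p = 0.0272). In WT the difference was 0.73 ± 0.25 and missed the threshold (adjusted p = 0.0546), and the difference between the 2 responses was 0.17 with a 95% interval from -0.61 to 0.95. Both calls moved with single arrays and settings. The KO call was lost without KO T0 replicate 1, 2 or 3 (adjusted p of 0.0724, 0.0593 and 0.0703), without KO T6 replicate 2 (0.74, adjusted p = 0.0801) or 3 (adjusted p = 0.0744), and with the mean of the gene's probe sets (0.48, adjusted p = 0.221). The WT difference passed without WT T6 replicate 3 (0.92, adjusted p = 0.0328) and without KO T6 replicate 1 or 2 (adjusted p = 0.0464 in each). The second Mxd1 probe set, at lower signal, differed by 0.94 in KO and 0.26 in WT, with adjusted p of 0.137 and 0.708. Its WT T6 arrays, at 426, 212 and 111, overlapped the WT T0 arrays at 248, 158 and 147. With the tested Mxd1 probe set, the log2 signal of Myc relative to Mxd1 was larger at T6 by 0.65 in WT and 0.37 in KO. There T6 and T0 arrays overlapped in both genotypes (exact permutation p of 0.2 and 0.4).

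Mxi1 and Mnt, the remaining antagonists, were not called in either genotype. Mxi1 stood at 605, 590 and 803 in WT T0 and at 647, 759 and 764 in WT T6. In KO it stood at 796, 1025 and 621 at T0 and at 766, 1277 and 698 at T6. The groups overlapped, and the log2 differences were 0.13 ± 0.24 in WT and 0.14 ± 0.24 in KO (adjusted p of 0.761 and 0.739). The second, weaker Mxi1 probe set differed by -0.27 and -0.43, so the 2 probe sets do not share a sign. Mnt, a broadly expressed antagonist that also pairs with MLX, stood at 1507, 1558 and 1526 in WT T0 and at 1869, 1473 and 1752 in WT T6. In KO it stood at 1503, 1190 and 1281 at T0 and at 1653, 1587 and 1810 at T6, where the T6 arrays lay above the T0 arrays. The log2 difference was 0.14 ± 0.12 in WT (adjusted p = 0.432) and 0.35 ± 0.12 in KO (adjusted p = 0.0641). Without KO T0 replicate 1 the KO difference was 0.44 and passed (adjusted p = 0.0372).

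Mlx, the MAX-like partner, fell in WT. The tested probe set stood at 1017, 860 and 868 in WT T0 and at 681, 669 and 662 in WT T6. In KO it stood at 889, 873 and 807 at T0 and at 777, 713 and 738 at T6. The T6 arrays lay below the T0 arrays in both genotypes, by a wider gap in WT. On the log2 scale Mlx fell by 0.43 ± 0.09 in WT, 1.35-fold lower (adjusted p = 0.00642), and the KO difference was -0.20 ± 0.09 (adjusted p = 0.156). Centring arrays on their median, which moves the median of all genes in this WT comparison by 0.12, ended the WT call (-0.32, adjusted p = 0.0604). The second Mlx probe set gave the larger difference in KO instead. It stood at 600, 590 and 550 in WT T0, at 482, 372 and 475 in WT T6, at 500, 498 and 594 in KO T0 and at 330, 375 and 320 in KO T6. Tested alone it fell by 0.61 in KO (adjusted p = 0.00883) and differed by -0.39 in WT (adjusted p = 0.0598), and with the mean of both probe sets Mlx was called lower in KO (-0.41, adjusted p = 0.00906).

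**Figure D2:**
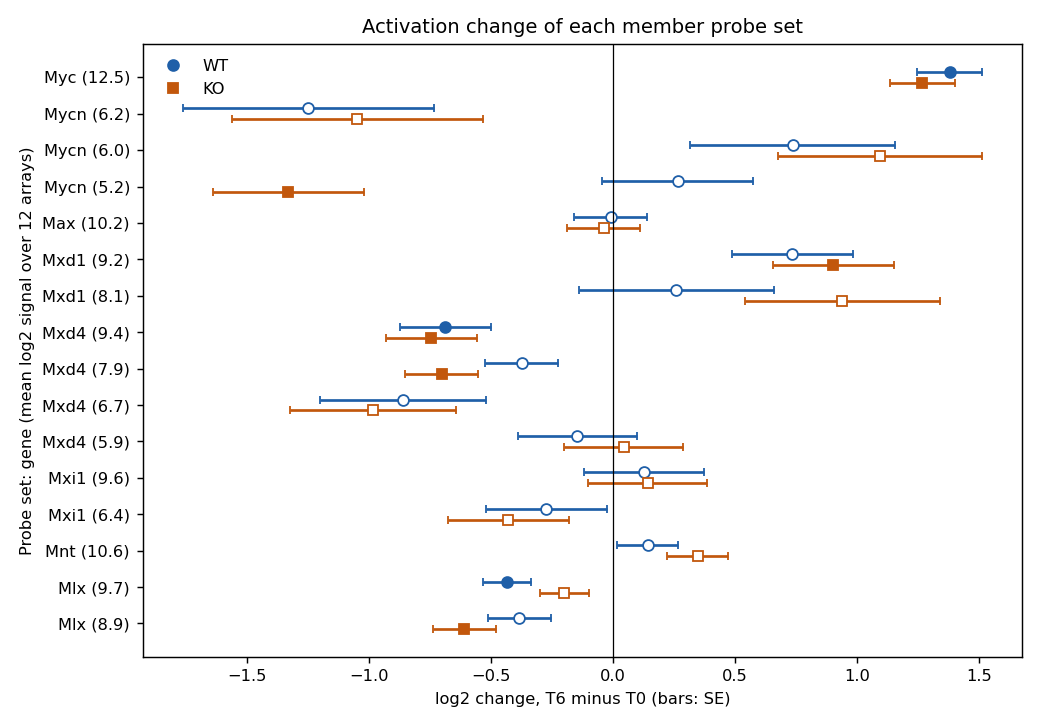
Log2 change on activation, T6 minus T0, of the 16 member probe sets that passed the filter, in WT (circles) and KO (squares). Bars are standard errors and filled symbols passed an adjusted p of 0.05 over all 30078 tested probe sets. The number after each gene is the mean log2 signal of that probe set. The Mycn probe sets lie on both sides of 0, and the 2 Mlx probe sets are ordered oppositely in WT and KO.

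Over all probe sets, 16 of the 18 passed the filter, and a weak Mnt and a weak Mxd1 probe set were above the floor on 0 arrays. Of the 16, 3 were called on activation in WT, 1 higher and 2 lower, against 20.6% of the 30078 tested probe sets (9.24% higher and 11.4% lower). In KO 6 were called, 2 higher and 4 lower, against 18.5% (8.33% higher and 10.2% lower). Among the 4 lower was a Mycn probe set that passed the filter through the 3 KO T0 arrays alone. The filter favoured its fall, so that call is not a fair test. Between genotypes 0 member probe sets were called at T0, T6 or in the difference between responses, where 0.0166%, 0.469% and 0.00332% of tested probe sets were. The count in KO was 3 without KO T0 replicate 1, without KO T0 replicate 3 or without both KO replicate 2 arrays. The count in WT was 5 without WT T6 replicate 2.

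Loss of Scap was not accompanied by a called difference in any member. Of the 8 members, 0 passed the limma test in quiescent cells, where 0.038% of tested genes did, and 0 passed at T6, where 0.0988% did. At an unadjusted p under 0.05 there were 0 members at T0, against 9.78% of tested genes, and 1, Mxd1, at T6, against 11.8%. Arrays of the 2 genotypes did not overlap for 2 members at T0, Mxd1 and Mnt, against 16.6% of tested genes, and for 1 at T6, Mlx, against 18.8%.

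**Figure D3:**
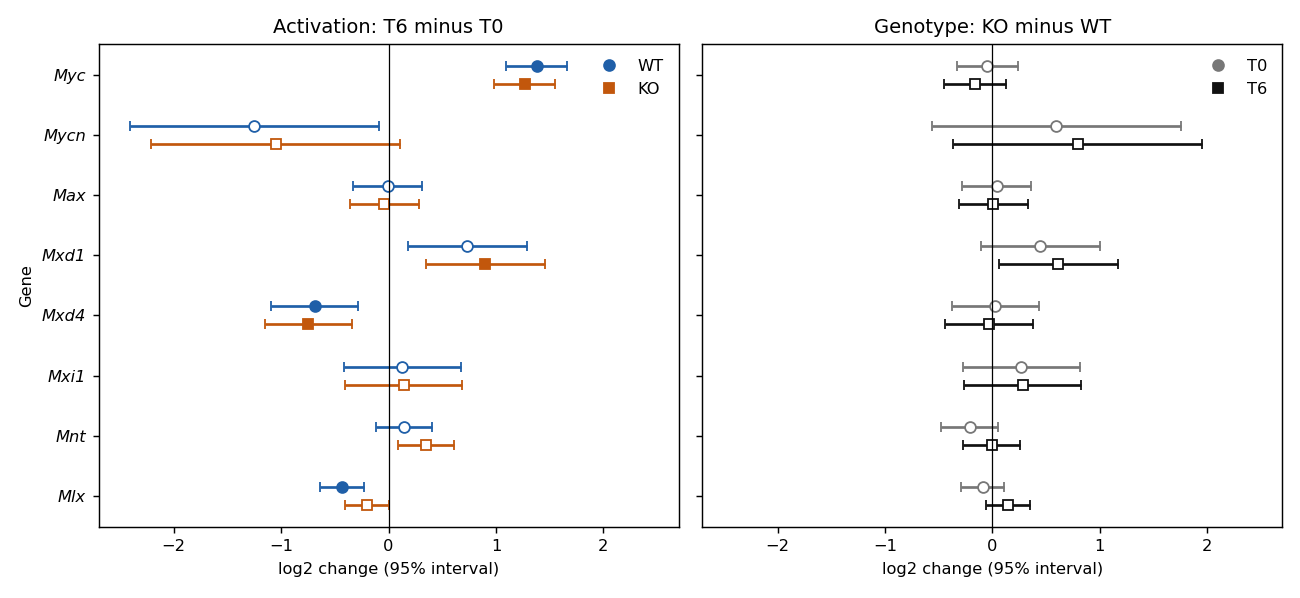
Log2 change of each member on activation (left, WT circles and KO squares) and between genotypes (right, T0 circles and T6 squares), with 95% intervals from the limma fit. Filled symbols passed an adjusted p of 0.05. No member is filled in the right panel, where the intervals of Myc reach from -0.33 to 0.24 at T0 and from -0.45 to 0.12 at T6.

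For Myc the difference between genotypes was -0.05 at T0, with a 95% interval from -0.33 to 0.24, and -0.16 at T6, with an interval from -0.45 to 0.12. Without the replicate 2 arrays of both KO groups the difference at T6 was -0.01. For Max it was 0.04 at T0 and 0.01 at T6, with intervals from -0.28 to 0.36 and from -0.31 to 0.33. For Mxd4 it was 0.03 and -0.03, with intervals from -0.38 to 0.44 and from -0.44 to 0.38. For Mnt it was -0.21 at T0 (adjusted p = 0.586) and -0.01 at T6. For Mycn, near background, it was 0.59 and 0.79, with adjusted p of 0.719 and 0.577. The Mycn probe set above the floor on the KO T0 arrays alone, tested on its own, differed by 1.67 at T0 (adjusted p = 0.190). In the difference between responses it stood at -1.60 (adjusted p = 0.789). It passed the filter only through KO T0, which favours such differences, so neither value is a fair test.

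Among the members well above background, Mxd1 had the largest KO minus WT difference at both times. At T0 its KO arrays, at 491 to 506, lay above its WT arrays, at 345 to 393, a log2 difference of 0.45 ± 0.25 (adjusted p = 0.588). At T6 the difference was 0.61 ± 0.25 (unadjusted p = 0.0326, adjusted p = 0.386), and WT T6 replicate 1 overlapped the KO arrays. Averaged over both times, a comparison added after these values were seen, the difference was 0.53 ± 0.18 with an adjusted p of 0.175, where 0.448% of tested genes were called. The mean of the 9 T cell markers moved opposite to these values, though the markers did not all move alike. On activation 3 of them were higher and 6 lower in each genotype. Between genotypes all 9 were lower in KO at both times, Cd3e the most, by 0.83 at T0 and 0.94 at T6. The mean log2 signal of the 9 ranged from 13.00 to 13.23 in WT T0, from 12.78 to 12.92 in WT T6, from 12.72 to 12.93 in KO T0 and from 12.28 to 12.59 in KO T6. It was thus highest in WT T0, where Mxd1 was lowest, and lowest in KO T6, where Mxd1 was highest. Within WT T6, replicate 1 had the highest Mxd1 and the lowest T cell marker level. The part of cell makeup in the Mxd1 values was not tested.

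For Mxi1 the difference was 0.27 ± 0.24 at T0 and 0.28 ± 0.24 at T6 (adjusted p of 0.730 and 0.676). The highest Mxi1 signals, 1025 and 1277, were on the replicate 2 arrays of KO T0 and KO T6, where the 5 erythroid markers averaged 12.50 and 12.75. Within each KO group the 3 arrays had the same order in Mxi1 and in these markers, and within the WT groups they did not. The second, weaker Mxi1 probe set was highest in KO T0 on replicate 3, at 120, where the markers averaged 9.74, the lowest of that group. In KO T6 this probe set was highest on replicate 2, at 103, where the markers averaged 12.75, the highest of that group. Over the 12 arrays Pearson's r of Mxi1 with the markers was 0.82, and 0.41 without both KO replicate 2 arrays. Without both replicate 2 arrays the difference of Mxi1 between genotypes was 0.09 at T0 and 0.02 at T6. Of the 9 listed erythroid markers 5 were tested, and their group means in WT reached from 5.70 for Epb42 to 12.99 for Car2. The part of erythroid RNA in the Mxi1 values was not tested.

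**Figure D4:**
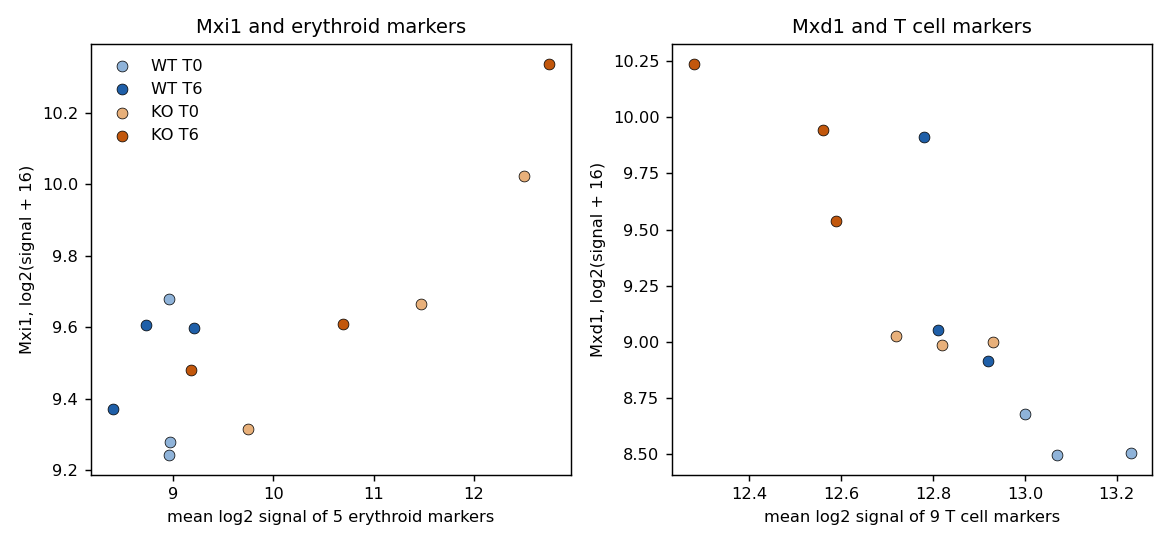
Left, log2(signal + 16) of Mxi1 on each of the 12 arrays against the mean log2 signal of 5 erythroid markers. Right, Mxd1 against the mean log2 signal of 9 T cell markers. Colours are the 4 groups. KO T0 replicate 2 and KO T6 replicate 2 lie at the upper right for Mxi1, at marker means of 12.50 and 12.75, and KO T6 replicate 2 lies at the upper left for Mxd1, at 12.28.

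For Mlx the difference was -0.09 at T0 (adjusted p = 0.758) and 0.14 at T6 (adjusted p = 0.565). At T6 the second Mlx probe set pointed the other way, at -0.35 (adjusted p = 0.278). Within each array the log2 signal of the tested probe set minus that of the second, whose size has no meaning as a level and is used only between groups, was 0.59 ± 0.20 (SD, n = 3) in WT T6 and 1.09 ± 0.16 in KO T6, with no overlap (exact permutation p = 0.1, the smallest possible). At T0 the same gap was 0.64 ± 0.11 in WT and 0.68 ± 0.21 in KO. The names of both probe sets mark them as matching several transcripts of Mlx. The actin control of RNA quality differed between the T6 groups as well. The log2 ratio of the 3′ to the 5′ actin control probe sets was 0.50 ± 0.05 in WT T6 and 0.71 ± 0.09 in KO T6. For the Gapdh control probe sets it was 0.13 ± 0.05 and 0.28 ± 0.11, and the arrays of the 2 groups overlapped. The part of RNA quality in the Mlx gap was not tested.

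Whether the activation response itself depended on Scap was tested as the difference between the KO and the WT change. No member was called (0 of 8, with 0 at an unadjusted p under 0.05), and 0% of tested genes were, with 4.59% at an unadjusted p under 0.05. The difference was -0.11 for Myc, with a 95% interval from -0.52 to 0.29, and 0.06 without both KO replicate 2 arrays. It was -0.06 for Mxd4, from -0.63 to 0.52, and 0.23 for Mlx, from -0.05 to 0.52. For Mnt it was 0.20, from -0.17 to 0.58. Equal responses are not shown by intervals of this width. The KO and WT changes at T6 and T0 share arrays with the genotype comparisons above.

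Other genes of the network that are no members were read from 1 list of 5, of which 4 were tested. Mycl, another MYC family gene, fell by 1.96 ± 0.24 in WT (adjusted p = 0.000343) and by 2.40 ± 0.24 in KO (adjusted p = 0.000125). It reached 4.35 ± 0.14 and 4.65 ± 0.49 (SD, n = 3) on the log2 scale, where an absent transcript reads 4, so the size is not well measured. Its T6 arrays lay under the floor, so Mycl passed the filter only through T0 arrays. The filter favoured its fall, so these calls are not a fair test. With the filter at percentile 60 or with the mean of probe sets, 0 genes of this list were called in either genotype. Myeloid markers were lower at T6 as well, with group ranges that did not overlap those at T0, and their part in the Mycl values was not tested. Mxd3, an antagonist linked to the S phase of dividing cells, differed by -0.72 in WT and -0.03 in KO, and Mga and Mlxip, a large MAX partner and an MLX partner, by between -0.14 and 0.23, none of them called. In this list 0 genes were called between genotypes at T0 (0.038% of all tested genes) or T6 (0.0988%). At an unadjusted p under 0.05 there was 1 at T0, Mycl, higher in KO by 0.73, against 9.78% of all tested genes. At T6 there was 1, Mxd3, higher in KO by 0.97, against 11.8%.

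Proteins that act with the members were described by counts, to be read against the shares of all tested genes called on activation, 11.3% higher and 13.8% lower in WT and 10.4% higher and 10.4% lower in KO. Of 13 tested MYC cofactors, 5 were called higher and 0 lower in WT, with a median log2 change of 0.21 against -0.06 over all tested genes, and 3 higher and 0 lower in KO, with a median of 0.13 against -0.004. Ruvbl1, an ATPase of chromatin remodelling complexes, rose by 0.84 ± 0.14 in WT and 0.72 ± 0.14 in KO. Kat5, a histone acetyltransferase, rose by 0.50 ± 0.09 and 0.51 ± 0.09, and Ccnt1, the cyclin of the elongation kinase, by 0.50 ± 0.11 and 0.42 ± 0.11. Ruvbl2 rose by 0.72 ± 0.14 in WT. Of 10 tested genes of the SIN3 corepressor, through which the antagonists act, 1 rose in WT, Rbbp7, a histone-binding subunit, by 0.40 ± 0.10. In KO 1 rose, Arid4b, by 0.33 ± 0.10. Both counts are near the share over all genes. With single arrays left out the count ranged from 0 to 2 in WT and from 0 to 1 in KO. Quantile normalization gave 0 in both genotypes, and median centring gave 3 in WT and 0 in KO.

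Of 11 tested genes that set MYC protein stability, 2 rose in WT and 1 in KO, where 11.3% and 10.4% of all tested genes rose. Fbxw7, the ubiquitin ligase subunit that marks MYC for degradation, rose by 0.49 ± 0.13 in WT and 0.45 ± 0.13 in KO (adjusted p of 0.0241 and 0.0386), and Stub1, another ubiquitin ligase, rose by 0.31 ± 0.09 in WT. With single arrays left out the count ranged from 0 to 3 in WT and from 0 to 2 in KO, and with arrays of the same number as a replicate block it was 2 in KO, 1 higher and 1 lower. In KO it was 0 with median centring, with no filter and in the separate fit, and 2 with the mean of probe sets. Of 8 tested genes of the complex of MAX with MGA, 0 were called in WT by limma, with 2 at an unadjusted p under 0.05 (36.5% of all tested genes), and 1 rose in KO, Pcgf6, a polycomb subunit, by 0.38 ± 0.08. The separate fit called 0 in KO, and median centring and the mean of probe sets called 2 each in WT. Of 4 tested targets of MLX with its MONDO partners, Klf10, a repressor of the Krüppel-like family, fell by 0.50 ± 0.14 in WT and by 0.72 ± 0.14 in KO, and with single arrays left out the count in this list ranged from 0 to 2 in WT and from 1 to 2 in KO. With median centring the count in WT was 0. In WT 13.8% and in KO 10.4% of all tested genes fell. Txnip, the best known target of this pair, differed by 0.12 in WT and by -0.34 in KO and was not called. Between genotypes 0 genes of these 5 lists were called by limma at T0 (0.038% of all tested genes), with 1 in each list at an unadjusted p under 0.05 (9.78% of all tested genes), and 0 at T6 (0.0988%), with 0 to 2 per list (11.8%). In the difference between responses 0 were called.

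Most of the tested genes known to be activated by MYC rose on activation in each genotype. Of 30 tested, 22 rose and 0 fell in WT, where 11.3% of all tested genes rose, and 17 rose and 0 fell in KO, where 10.4% did. The median log2 change of the 30 was 0.60 in WT and 0.50 in KO, against -0.06 and -0.004 over all tested genes. The list was chosen with earlier results of these data known, so these counts describe it and do not test MYC activity. Hexokinase gene Hk2 rose by 2.06 ± 0.19 in WT and 1.76 ± 0.19 in KO. Srm, which makes spermidine, rose by 1.39 ± 0.16 and 1.005 ± 0.16. Shmt2, a mitochondrial one-carbon enzyme, rose by 1.04 ± 0.12 and 1.25 ± 0.12, and the nucleolar genes Ncl and Gnl3 rose by 0.77 and 0.76 in WT and by 0.70 and 0.75 in KO. Of the 30, 16 were called in both genotypes, 6 in WT and not in KO, and 1, Rrs1, in KO and not in WT. The count in KO was 10 without KO T0 replicate 3, 10 without KO T6 replicate 1, 11 without KO T6 replicate 3 and 11 with each genotype fitted alone. The E-box CACGTG lay in the promoter windows of 7 of the 24 tested targets that had one, against 8.09% of all genes with a window, namely Apex1, Cdk4, Eif4a1, Eif4e, Hspd1, Ldha and Nme1.

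**Figure D5:**
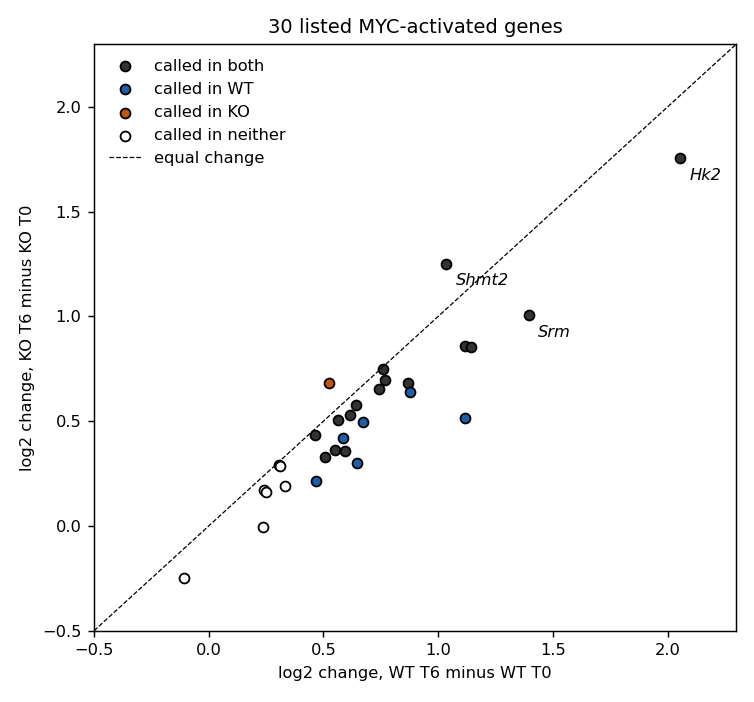
Log2 change on activation in WT (horizontal) and KO (vertical) of the 30 tested genes listed as activated by MYC, each point 1 gene. Fill shows where a gene passed an adjusted p of 0.05, and the dashed line marks equal change. Most points lie below the line, and Hk2 is the farthest from 0 on both axes, at 2.06 and 1.76.

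Between genotypes 0 of the 30 MYC-activated genes were called at T6, where 0.0988% of all tested genes were, and 4 had an unadjusted p under 0.05, where 11.8% of all tested genes did. The difference was negative for 26 of the 30, with a median of -0.14, while 42.9% of all tested genes were negative and their median was 0.04. In the difference between responses 0 were called and 0 had an unadjusted p under 0.05, 28 of 30 were negative with a median of -0.15, and 43.2% of all tested genes were negative. Without both KO replicate 2 arrays 22 of the 30 were negative at T6 and 23 in the difference between responses, with medians of -0.10 and -0.05. T cell marker means were 12.78 to 12.92 in WT T6 and 12.28 to 12.59 in KO T6, and B cell marker means 7.17 to 8.13 and 8.42 to 9.59. Myeloid marker means were 7.05 to 7.59 in WT T6 and 7.89 to 8.38 in KO T6, and the actin 3′ to 5′ log2 ratio was 0.50 ± 0.05 and 0.71 ± 0.09. The part of cell makeup and RNA quality in these shifts was not tested.

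Of 8 tested genes known to be repressed by MYC, 2 rose and 2 fell in WT, where 11.3% of all tested genes rose and 13.8% fell, and 2 rose and 1 fell in KO, where 10.4% rose and 10.4% fell. Those that rose were the same in both genotypes. Cdkn1a, the cell cycle inhibitor p21, rose by 2.21 ± 0.20 in WT and 2.60 ± 0.20 in KO, and Ndrg1, a stress-response gene, rose by 1.82 ± 0.26 and 1.84 ± 0.26. Cebpa, a myeloid transcription factor, fell by 1.35 ± 0.28 and 0.96 ± 0.28, at low signal and alongside the myeloid markers, whose part was not tested. Gadd45a, a stress-induced gene, fell by 1.41 ± 0.45 in WT. Of the 6 genes of this list with a promoter window, 0 held CACGTG. Between genotypes 0 of the 8 were called by limma at T0, at T6 or in the difference between responses. At an unadjusted p under 0.05 there were 3, 5 and 2. Over all tested genes these shares were 9.78%, 11.8% and 4.59%. At T6, 6 were higher in KO and 2 lower, with a median of 0.39 against 0.04 over all tested genes. In the difference between responses 7 of 8 were positive, with a median of 0.50 against 0.04. The largest of these, 1.54 for Cdkn2b, was of a gene near the floor, with group means between 5.29 and 6.29. The largest difference at T6, 1.73 for Gadd45a, came with an SD of 1.07 (n = 3) in KO T6. The shifts of this list were not recomputed without the KO replicate 2 arrays. The part of cell makeup in these shifts was not tested.

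The genes whose signal followed a member most closely were named by Pearson's r of log2 signals over the 12 arrays, which share groups and scaling, so r is given as a description. For Myc they were Bach1 (r = 0.996), Shmt1 (r = 0.995) and Cd320 (r = 0.995). Shmt1, for example, stood at group means of 8.66 in WT T0, 11.33 in WT T6, 8.64 in KO T0 and 10.97 in KO T6. For Mxd1 they were Tpd52l2 (r = 0.954), Tg (r = 0.944) and Sertad4 (r = 0.939), the last close to background. For Mxd4 they were Prxl2b (r = 0.967), Rnf144a (r = 0.965) and Fbxo28 (r = 0.963), and for Mxi1 Daam1 (r = 0.966), Plk4 (r = 0.963) and Micall2 (r = 0.957). Rnf144a stood at 10.18 in WT T0, 8.71 in WT T6, 10.12 in KO T0 and 8.80 in KO T6. Daam1 stood at 9.03 in WT T0, 9.10 in WT T6, 9.48 in KO T0 and 9.60 in KO T6.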

How the data were processed

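The deposited values are linear signal intensities per probe set that the authors made with the Affymetrix software GCOS, per the submitters' processing notes, and its version, background step and summary method are not given in the sources used here. The files hold no counts or depth, so the 3 arrays per group limit the precision. Values were taken as log2(signal + 16), which understates changes of weak probe sets, with no further normalization. Of 45101 probe sets, 64 were controls, 34945 carried 1 gene symbol, 932 several and 9160 none. The brightest probe set on average stood for each gene, which was kept if 3 or more arrays exceeded their own percentile 40, leaving 13156 genes, with 30078 probe sets in the fit of single probe sets. A model with 1 coefficient per group over all 12 arrays was fitted by lmFit and eBayes (limma 3.58.1, R 4.3.3) and tested on both sides. Adjusted p is Benjamini-Hochberg over all tested genes or probe sets, with calls at 0.05. Errors of log2 changes are standard errors, intervals are 95%, and exact permutation tests are two-sided. Gene set tests were not used.

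The members and the gene lists were chosen with earlier results of these data known. Named genes are the 8 members, up to 4 genes per list and comparison by smallest p, all other network genes, the 3 genes correlated most with Myc, Mxd1, Mxd4 and Mxi1, and Scap. Rrs1 and the genes named for an E-box were singled out from counts after their values were seen. Symbols come from the platform annotation, which can be old. Signals of different probe sets are not compared as levels, and differences between them within an array are used only to compare groups. The labels call the samples biological replicates, but do not tie arrays to mice. After removal of group means, T0 and T6 arrays were correlated across genes. Those of the same number stood at 0.179, 0.464 and 0.38 in KO and at 0.225, -0.0566 and -0.115 in WT. Of different numbers, T0 replicate 3 with T6 replicate 1 in KO stood at 0.145. In WT T0 replicate 2 with T6 replicate 3 stood at 0.198, and T0 replicate 3 with T6 replicate 2 at 0.232. Each KO T0 array thus correlated most with the T6 array of its number, and in WT only replicate 1 did. This does not show which arrays share a mouse. The fit was tested on simulated data of 13156 genes. In these, 50, 100 and 50 genes were changed by 0.5, 1 and 2 on the log2 scale. For activation in WT it recovered 18%, 61% and 96% of them, with 4 false calls. In KO it recovered 12%, 63% and 96%, with 8. Far fewer genes changed there than were called on activation in the data, so these shares do not measure the power of the real comparisons. Alternatives were the added constant, the filter, the probe set rule, the normalization, the fit, the replicate block and leaving out arrays.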

Additional observations from a re-analysis of the deposited data

How the results depend on the processing

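Each result was recomputed under up to 24 alternatives. Over all members and comparisons, 861 recomputed changes kept their direction and side of the threshold, 59 changed sign, 15 newly passed and 12 no longer passed. Myc was called on activation in both genotypes under all 24, with adjusted p up to 0.00166 in WT and 0.00737 in KO. The sign changes were of values that were not called. For KO against WT at T6 they were Max with quantile normalization (-0.0087) and median centring (-0.058), Mxd4 (0.035) and Mlx (-0.11) with the mean of probe sets, and, without both KO replicate 2 arrays, Mxd4 (0.0068) and Mnt (0.033). On activation they were Max in WT with quantile normalization (0.023) and median centring (0.11), Max in KO with median centring (0.022), and Mxi1 with the mean of probe sets in WT (-0.074) and KO (-0.14). In the difference between responses they were Myc without both KO replicate 2 arrays (0.059), Mycn with 64 added before the logarithm (-0.075), with the mean of probe sets (-0.35) and without those arrays (-0.11), and Mxi1 with the mean of probe sets (-0.070), quantile normalization (-0.014), median centring (-0.040) and without those arrays (-0.071). With single arrays left out, Max ranged from -0.044 to 0.13 between genotypes at T0, from -0.13 to 0.10 at T6, from -0.10 to 0.13 on activation in WT, from -0.10 to 0.045 in KO and from -0.16 to 0.061 in the difference between responses. Mxd4 ranged from -0.10 to 0.24 between genotypes at T0, from -0.15 to 0.032 at T6 and from -0.27 to 0.068 in the difference between responses. Mnt at T6 ranged from -0.11 to 0.064 and Mxi1 on activation in KO from -0.12 to 0.32. The difference between responses ranged from -0.23 to 0.042 for Myc, -0.15 to 0.88 for Mycn, -0.022 to 0.48 for Mxd1 and -0.25 to 0.19 for Mxi1. Mxd1 in WT also passed with 64 added (adjusted p = 0.0472), a filter at percentile 60 (0.0354), quantile normalization (0.0325), median centring (0.0216) and an intensity trend (0.0344). Mxd4 in WT was lost when the pair of groups was fitted alone (adjusted p = 0.0702), where Mycn in KO passed (0.046). Members called on activation in KO ranged from 1 to 4 with single arrays left out, member probe sets from 2 to 5 in WT and from 3 to 7 in KO, and MYC-activated genes from 10 to 18 in KO. Member probe sets in WT came to 5 with the filter at percentile 60, those in KO to 3 without both KO replicate 2 arrays, and MYC-activated genes in KO to 11 in the separate fit. With arrays of the same number as a replicate block, members called stayed at 3 in WT and 3 in KO, member probe sets were 3 and 4, MYC-activated genes were 20 and 14, and no member was called between genotypes. In WT the replicate numbers do not pair the arrays by the check of correlations, so the block there may join arrays that are no pairs. The cause of these changes was not tested. Signals near the floor, as for Mycn, limit what these arrays can measure.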
